A study of Arabidopsis thaliana with 30 samples.

Results

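In root meristems of Arabidopsis thaliana, 162 genes had a lower transcript level 14 h after estradiol than after DMSO in both of 2 lines, one inducing ZAT14-like and the other inducing ZAT14. They were chosen by their values: at least 1 FPKM (FPKM counts fragments per kilobase of transcript, scaled to library size) in at least 3 libraries, and a 14 h group mean of log2(FPKM + 1) at least 0.5 below the DMSO mean in each line. Of 34218 genes listed, 17157 passed the expression minimum and 168 of those met the threshold, which is 0.979% of the genes that passed. Of 9 named genes that the choice leaves out, 6 met the threshold: the polyamine gene ACL5, the vascular regulator TMO5, the auxin importer LAX2 and the clock genes CCA1, LHY and RVE1. Because the 14 h and DMSO libraries chose the genes, their values at those times, and any comparison that shares those libraries, are given as a description with no test. Tests compared only libraries outside the difference that chose the genes. The 10 h libraries counted in the choice only toward the expression minimum. In the fit of the ZAT table, the libraries that chose the genes entered the estimate of the variance.

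The series measured RNA from 5-day-old seedlings in 30 libraries that form 10 groups of 3. The lines pWOL(XVE)::ZAT14-like-TURQ and pWOL(XVE)::ZAT14-TURQ, both in the Col-0 background, carry a C2H2 zinc finger gene under an estradiol-inducible WOL promoter, known to drive expression in root vascular tissue, and their meristems were taken after 5 µM estradiol for 10 h or 14 h or after DMSO, the solvent. Meristems of the pear sextuple mutant, which lacks PEAR-family Dof transcription factors of the early phloem, and of Col-0 wild type were taken with no induction. The third set holds fluorescent protoplasts sorted from roots of pCALS7::H2B-RFP pNAC086(XVE)::PLT2-3YFP, in which the nuclear reporter marks developing sieve elements and 10 µM estradiol for 6 h, or DMSO, was used to induce the root meristem factor PLT2 in the same cells. Meristems were cut in batches of seedlings, and nothing in the labels tells whether replicates were grown separately: a p-value here covers only the variation among the libraries made, part of which may be technical. The labels give neither the alleles of the mutant nor how long DMSO was applied.

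Several of the genes belong to processes known from seedlings moving into light. HY5 is a bZIP transcription factor that promotes growth in light, binds the G-box sequence CACGTG and is held back in darkness by COP1 and SPA proteins, while some small B-box (BBX) proteins modulate its activity. Its known targets include MYB12, an activator of flavonol synthesis, and genes for the early light-induced proteins ELIP1 and ELIP2, which protect plastids under strong light. The circadian clock times many of the same genes: MYB-like factors of the CCA1, LHY and REVEILLE (RVE) family peak around dawn, and several of them bind the evening element, whose core is AATATCT. Roots are normally shaded in soil but express much of this machinery when grown in light on plates, and the labels state long days without giving the clock hour of any harvest.

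The induced gene was high in its own line. In the ZAT14-like line the ZAT14-like gene averaged 5.98, 54.9 and 71.4 FPKM in the order DMSO, 10 h and 14 h, and ZAT14 averaged 15.2, 45.4 and 68.2 FPKM in the ZAT14 line. With DMSO each gene was already higher in its own line than in the other, where ZAT14-like averaged 0.677 and ZAT14 8.89 FPKM. Differences from DMSO are therefore taken from that higher level of the induced gene, and its cause was not tested. The summed level of 11 xylem markers was higher with induction, going from 7.02 to 13.7 FPKM with DMSO to 52.0 to 72.0 at 14 h in the ZAT14-like line, and from 5.99 to 14.3 to 28.3 to 28.5 in the ZAT14 line. Root cap marker sums at 14 h were 77.8 to 84.4 and 83.1 to 84.6 FPKM, beside 77.6 to 86.7 and 80.1 to 93.2 with DMSO. Other marker sets were higher at 14 h in both lines. Stem cell niche sums at 14 h were 62.2 to 66.5 and 55.9 to 59.9 FPKM, beside 46.6 to 50.4 and 45.7 to 47.3 with DMSO. For epidermis and root hair they were 97.4 to 111 and 90.8 to 97.0, beside 80.6 to 88.9 and 79.9 to 85.2. Endodermis sums overlapped DMSO in the ZAT14-like line only, and sieve element sums in the ZAT14 line only. None of the chosen genes is on the list of 51 mitosis genes, 34 tested histone genes or 28 DNA replication genes, although 47, 30 and 21 of these lay below DMSO at 14 h in both lines. Their medians were -0.52 and -0.26 for mitosis, -0.24 and -0.15 for histones and -0.26 and -0.09 for replication, the ZAT14-like line first. The sorted-cell libraries totalled 31426740 to 44837397 counts. Estradiol was not given to any plants lacking the transgene, so a response to estradiol itself cannot be told apart from a response to the induced gene. In whole meristems, fewer cells of a type and less RNA per cell cannot be told apart either.

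All 162 genes were lower at 14 h by the rule, and in 139 of them every 14 h library lay below every DMSO library in both lines. Over all 17157 genes that share was 6.52%, and the rule itself selects for such a separation. The median difference, 14 h minus DMSO, was -0.73 on the log2(FPKM + 1) scale in the ZAT14-like line and -0.84 in the ZAT14 line. Single genes ran from -1.53 to -0.50 in the former and from -2.21 to -0.51 in the latter. The difference was larger in the ZAT14 line for 110 genes and in the ZAT14-like line for 52, and 17 genes were lower by at least 1 in both. Their DMSO levels were ordinary for this tissue, with a median of 11.3 FPKM beside 11.6 over all genes tested, and ran from 1.14 to 448 FPKM. The 168 genes that met the threshold in both lines are 44.2% of the 380 that met it in the ZAT14-like line and 52.5% of the 320 that met it in the ZAT14 line.

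Just inside the threshold were AT3G23510, at -0.50 in the ZAT14-like line and -0.54 in the ZAT14 line, the sinapate glucosyltransferase gene UGT84A1, at -0.50 and -0.94, and AT1G66330, at -0.50 and -0.84. Just outside were AT2G20080, at -0.50 and -0.54, the inositol oxygenase gene MIOX2, at -0.50 and -0.51, and the arogenate dehydratase gene ADT5, at -0.50 and -0.74. No gap in values sets the chosen genes off from the others.

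**Figure D1:**
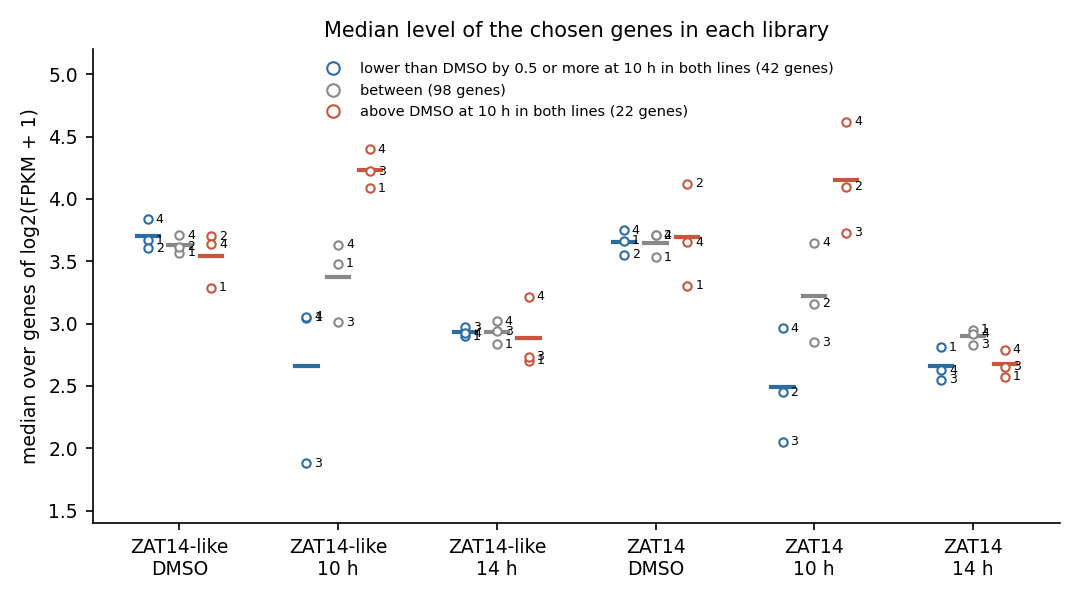
Median of log2(FPKM + 1) over the chosen genes in each of the 18 libraries of the ZAT lines (points numbered by library, bars for group means), in colours for genes low at 10 h, between and above DMSO at 10 h. The 42 genes low at 10 h have their lowest medians, 1.88 and 2.05, in the 10 h libraries numbered 3. The medians of the 22 genes above DMSO at 10 h lie between 3.73 and 4.62 over all 10 h libraries and between 2.57 and 3.22 at 14 h.

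The 10 h libraries, which counted in the choice only toward the expression minimum but share their DMSO controls with it, split the genes. The median difference from DMSO at 10 h was -0.26 in the ZAT14-like line and -0.43 in the ZAT14 line, beside 0.03 and 0.02 over all genes. At 10 h, 42 genes already lay at or below -0.5 in both lines, 22 lay above DMSO in both lines, and 98 lay between. The 42 genes low at 10 h had medians of -0.82 and -0.98 then and -0.84 and -0.95 at 14 h, and 20 of them were higher at 14 h than at 10 h in both lines. The 22 genes above DMSO at 10 h had medians of 0.44 and 0.22 then and -0.72 and -0.86 at 14 h. The grouping is a description: it uses group means and the same DMSO libraries as the rule.

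The 10 h libraries did not behave alike. Relative to DMSO, the median of the chosen genes was -0.12, -0.58 and -0.11 in libraries 1, 3 and 4 of the ZAT14-like line, and -0.43, -0.68 and -0.17 in libraries 2, 3 and 4 of the ZAT14 line. Library 3 held the lowest 10 h value for 118 of the 162 genes in the ZAT14-like line, or 72.8%, and for 106 in the ZAT14 line, or 65.4%, while it was lowest for 26.8% and 27.0% of all genes. The 14 h libraries were closer together, at -0.71 to -0.89. Whether the libraries numbered 3 were harvested at another hour was not tested, since the labels give no hour.

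Counts by course at 10 h depend on those libraries. Without the 10 h libraries numbered 3, an alternative chosen after seeing the data, 29 genes were low at 10 h and 35 above DMSO, and 26 and 22 of them were shared with the first grouping. Without those numbered 4, also chosen after seeing the data, 52 were low and 12 above, with 36 and 11 shared. Every 10 h library lay below every DMSO library for 54 genes in the ZAT14-like line and 71 in the ZAT14 line, where the share over all genes was 13.0% and 7.95%. Every 10 h library lay above DMSO for 9 and 3 genes, beside 18.2% and 12.4% of all genes.

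**Figure D2:**
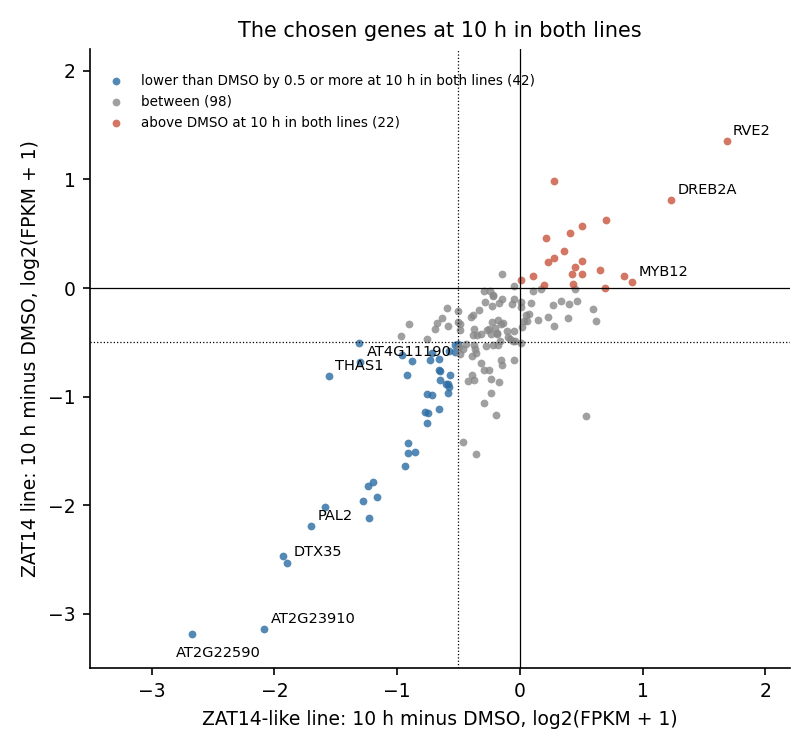
Difference at 10 h from DMSO on the log2(FPKM + 1) scale for each of the 162 genes, in the ZAT14-like line on the horizontal axis and the ZAT14 line on the vertical axis, with colours for the 3 courses. RVE2 stands at 1.69 and 1.35, and AT2G23910 at -2.08 and -3.14.

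Promoter sequences were read from the TAIR10.1 genome of RefSeq for 7 members picked because they hold a G-box, to show the G-boxes and evening elements of clock, light and auxin genes described below. HY5 and ELIP2 have no CACGTG in the window searched. Capitals mark matches to CACGTG (the G-box) and to AATATCT or its reverse complement AGATATT (the evening element core), searched on both strands, and positions count from the annotated start of the gene. PRR9, a clock gene expressed in the morning, is shown at chr2:19232357-19232456 on the plus strand, RVE2, a REVEILLE family gene, at chr5:14753219-14753318 on the minus strand, and GBF2, a bZIP factor that binds the G-box, at chr4:484555-484674 on the minus strand. MYB12 is shown at chr2:19476176-19476235 on the plus strand, ELIP1 at chr3:8085710-8085769 on the minus strand, and the auxin response repressors IAA20 at chr2:19307564-19307623 and IAA30 at chr3:22995546-22995605, both on the plus strand.
PRR9: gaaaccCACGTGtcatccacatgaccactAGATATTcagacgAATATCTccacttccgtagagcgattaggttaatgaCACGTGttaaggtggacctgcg
RVE2: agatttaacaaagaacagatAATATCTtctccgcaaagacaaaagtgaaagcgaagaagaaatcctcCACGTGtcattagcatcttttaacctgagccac
GBF2: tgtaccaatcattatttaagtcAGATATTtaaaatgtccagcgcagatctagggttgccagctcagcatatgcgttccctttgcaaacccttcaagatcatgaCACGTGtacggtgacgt
MYB12: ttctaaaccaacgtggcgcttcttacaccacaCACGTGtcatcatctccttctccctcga
ELIP1: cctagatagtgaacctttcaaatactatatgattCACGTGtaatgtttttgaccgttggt
IAA20: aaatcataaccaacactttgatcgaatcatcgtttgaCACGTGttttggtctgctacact
IAA30: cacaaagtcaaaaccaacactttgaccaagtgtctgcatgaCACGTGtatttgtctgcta

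PRR9 held 2 G-boxes, at -244 and -172, around 2 evening element cores, at -221 and -208. RVE2 held a G-box at -163 and an evening element core at -210, and GBF2 held them at -47 and -128. MYB12, ELIP1, IAA20 and IAA30 each held 1 G-box, at -118, -66, -113 and -99. The windows searched ran from 250 bases before to 50 bases after the gene's annotated start, for 161 of the 162 genes and for 17114 of the genes tested. CACGTG was found in 29 of 161, or 18.0%, and in 8.86% of all. AATATCT was found in 27, or 16.8%, and in 11.2% of all. PDC2, PRR9, GBF2, AT5G04000, HCF107, RVE8 and RVE2 held both.

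By course at 10 h, AATATCT was found in 9 of the 22 genes above DMSO, or 40.9%, in 14.4% of those between and in 9.52% of those already low. For CACGTG the shares were 27.3%, 16.5% and 16.7%. The auxin response element TGTCTC was in 15.5% of the genes and 13.5% of all, and the core of the mitosis-specific activator, AACGG, in 25.5% and 27.2%. The TCP-type site GGCCCA was in 7.45% of the genes and 20.5% of all, and the E2F-type site TTCCCGC in 0.621% and 1.69%. A match is a run of letters, not a bound site, and the shares were compared with no test.

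**Figure D3:**
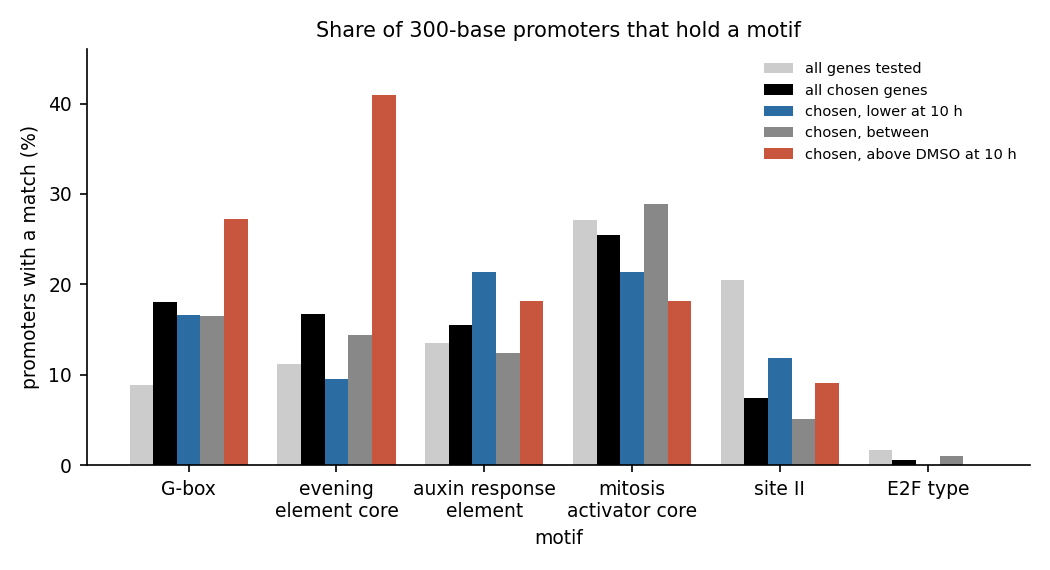
Share of 300-base promoters, in percent, that hold each of 6 motifs on either strand, with bars for all genes tested, all chosen genes and the chosen genes by course at 10 h. The G-box bars of all genes and chosen genes stand at 8.86% and 18.0%, and the evening element bar of the genes above DMSO at 10 h stands at 40.9%.

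Light signalling gave more members than any other list, but it was also the longest of the lists made after the members were seen. Some of the other such lists held a larger share of members, such as photoprotection with 8 of 14 tested. On a list of 33 tested genes drawn up after the members were seen, 11 were members: CRY3, RUP2, SPA3, HY5, HFR1, BBX28, BBX29, BBX30, GBF2, GBF3 and RPT2. HY5, on chromosome 5, read 64.4, 87.0 and 84.5 FPKM with DMSO in the ZAT14-like line, 117, 73.8 and 112 at 10 h, and 40.3, 49.8 and 57.4 at 14 h. The ZAT14 line gave 75.8, 106 and 84.2 with DMSO, 88.9, 54.6 and 109 at 10 h, and 46.4, 42.2 and 46.1 at 14 h. Every 14 h library was below every DMSO library, and at 10 h library 3 was the lowest in both lines.

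BBX29, a B-box protein gene, read 6.13, 9.88 and 9.17 FPKM with DMSO, 11.0, 9.29 and 14.8 at 10 h, then 3.18, 3.29 and 3.63 after 14 h, in the ZAT14-like line. Values in the ZAT14 line were 6.44, 15.6 and 8.42, then 11.6, 4.94 and 15.9, then 2.79, 2.26 and 3.05. The 14 h values did not overlap those with DMSO in either line. BBX30, a microprotein of the same family, overlapped in the ZAT14-like line, at 6.45 to 10.8 FPKM with DMSO and 3.03 to 7.23 at 14 h, and did not in the ZAT14 line, at 9.14 to 18.2 and 3.73 to 6.85. RPT2, a partner of the phototropin blue light receptors, had the highest level of the list. It read 149, 168 and 183 FPKM with DMSO and 77.4, 93.6 and 111 after 14 h in the ZAT14-like line, and 159, 183 and 165 then 71.8, 64.6 and 88.8 in the ZAT14 line. No library at 14 h reached the DMSO range.

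GBF3, which like GBF2 binds the G-box, had 18.9 to 25.6 FPKM with DMSO and 11.7 to 14.0 after 14 h in the ZAT14-like line, and 19.3 to 31.0 then 10.3 to 12.0 in the ZAT14 line. GBF2 had 15.0 to 20.0 then 8.39 to 9.97, and 17.7 to 28.7 then 10.7 to 11.5. The ranges did not overlap for either gene. SPA3, which works with COP1 to remove HY5 in darkness, was at -0.92 and -1.04 at 14 h, so that genes that promote and genes that restrain light responses were both among the members.

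Photoprotection and plastid upkeep was represented by 8 members of 14 tested, on a list also drawn up after the members were seen: ELIP1, ELIP2, UVR3, FTSH1, FTSH8, SIGE, HCF107 and HCF173. ELIP2 read 169, 213 and 273 FPKM with DMSO, 128, 60.4 and 211 at 10 h, and 81.6, 105 and 140.5 after 14 h in the ZAT14-like line. For the ZAT14 line they were 207, 276 and 272, then 125, 29.7 and 176, then 106, 82.9 and 105. Its 14 h libraries lay below DMSO throughout, and the 10 h libraries numbered 3 were lower still. ELIP1 read 117, 162 and 209 FPKM with DMSO and 56.4, 89.1 and 148 after 14 h in the ZAT14-like line, where the ranges overlapped. In the ZAT14 line it read 153, 183 and 213 with DMSO and 90.5, 66.8 and 107 at 14 h, with no overlap. ELIP1 and ELIP2 are close relatives, so reads could have been divided between them.

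SIGE, a sigma factor of the plastid RNA polymerase, was above DMSO at 10 h and low at 14 h. Its values in the ZAT14-like line were 7.31, 10.6 and 11.3 FPKM with DMSO, 16.9, 14.6 and 23.6 at 10 h and 3.21, 3.68 and 8.51 at 14 h. The ZAT14 line gave 9.51, 22.2 and 12.2, then 16.7, 7.52 and 26.2, then 3.58, 2.91 and 5.77. All 10 h libraries exceeded DMSO in the ZAT14-like line, and in the ZAT14 line they overlapped it, with library 3 the lowest. The 14 h libraries overlapped DMSO in the ZAT14-like line, by library 4, and not in the ZAT14 line. The plastid proteases FTSH1 and FTSH8 averaged 12.8 and 9.82 FPKM with DMSO and 8.15 and 5.71 after 14 h in the ZAT14-like line, and 14.7 and 10.8 then 5.96 and 5.32 in the ZAT14 line. Markers of green tissue were near 0 in all these libraries: 3 genes for chlorophyll-binding and Rubisco proteins summed to 3.45 to 4.37 FPKM with DMSO and 4.32 to 7.51 after 14 h in the ZAT14-like line, and to 3.15 to 4.21 and 3.66 to 4.45 in the ZAT14 line.

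Plastid isoprenoid and carotenoid synthesis had 7 members of 18 tested on a list made after the members were seen, and none was low at 10 h in both lines. CLA1, the entry enzyme of the plastid isoprenoid pathway, averaged 31.9 ± 2.73, 37.0 ± 6.98 and 21.8 ± 2.45 FPKM (SD, n = 3; DMSO, then 10 h, then 14 h) in the ZAT14-like line, and 33.6 ± 5.57, 34.9 ± 9.10 and 18.9 ± 2.12 in the ZAT14 line. PSY, phytoene synthase, which commits the pathway to carotenoids, averaged 13.2 ± 1.95, 11.8 ± 3.67 and 6.98 ± 0.976 FPKM in the former and 15.8 ± 3.85, 11.0 ± 4.11 and 6.49 ± 0.307 in the latter. ABA1, zeaxanthin epoxidase, was at -0.70 and -0.90 at 14 h. All 7 genes, which also include BETA-OHASE1, PDS1, SPS1 and SPS2, had no overlap between 14 h and DMSO in either line. So did 139 of the 162 chosen genes, for which the rule selects, beside 6.52% of all genes tested. The list of tetrapyrrole synthesis, which covers chlorophyll and was also made after the members were seen, had 2 members of 10 tested. They were GUN5, a magnesium chelatase subunit, at -0.58 and -0.93, and hemb2, at -0.60 and -0.65.

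Phenolic metabolism was represented among the genes low at 10 h. PAL2, which takes phenylalanine into the phenylpropanoid pathway, read 53.8, 56.0 and 74.4 FPKM with DMSO, 23.6, 7.49 and 32.0 at 10 h and 24.1, 29.0 and 22.0 after 14 h in the ZAT14-like line. Values in the ZAT14 line were 60.3, 42.7 and 68.1, then 11.5, 5.79 and 21.6, then 25.3, 18.6 and 15.0. All libraries with estradiol were below all with DMSO. UGT78D2, which glucosylates flavonols and anthocyanidins, read 134, 155 and 198 FPKM, then 83.3, 31.9 and 124, then 77.1, 91.4 and 90.0 in the ZAT14-like line. For the ZAT14 line they were 162, 139 and 195, then 56.5, 20.3 and 87.4, then 81.5, 67.0 and 59.1. Here too no estradiol library reached the DMSO range.

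UGT84A2, a sinapate glucosyltransferase, read 53.1, 63.6 and 98.1 FPKM with DMSO and 26.8, 35.1 and 33.5 after 14 h in the ZAT14-like line, and 71.9, 80.6 and 99.8 then 36.0, 23.6 and 26.7 in the ZAT14 line. DTX35, a vacuolar transporter involved in flavonoid levels, had a 10 h mean lower than its 14 h mean: 106, 31.7 and 66.8 FPKM in the order DMSO, 10 h, 14 h in the ZAT14-like line, and 112, 20.8 and 58.0 in the ZAT14 line. On a list of phenylalanine supply and phenolic glycosylation made after the members were seen, 8 of 16 tested genes were members and 6 of them were low at 10 h. Beside those named, the 8 are CM1, ADT3, ADT4, UGT84A1 and MYB32. On the list of phenylpropanoid and flavonoid synthesis itself only PAL2 and MYB12 of 19 tested were members, and the medians of that list at 14 h were -0.04 and -0.19.

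MYB12 took the opposite course at 10 h. It read 26.6, 47.2 and 47.5 FPKM with DMSO, 69.2, 58.5 and 102 at 10 h and 7.92, 13.0 and 30.3 after 14 h in the ZAT14-like line. In the ZAT14 line it read 33.2, 106 and 52.2, then 74.9, 25.9 and 107, then 9.81, 9.05 and 17.1, which is a mean difference at 14 h of -2.21. Every 10 h library exceeded DMSO in the ZAT14-like line, whereas in the ZAT14 line they ran from below the DMSO range to just above it. The 14 h ranges overlapped DMSO by 1 library in the ZAT14-like line and not in the ZAT14 line. AT2G23910, annotated as a member of the NAD(P)-binding Rossmann-fold superfamily, ran parallel to PAL2, with means of 66.1, 21.1 and 26.7 FPKM and of 68.0, 7.72 and 22.7.

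The clock list, 20 tested genes, gave RVE2, RVE8, ELF4 and PRR9, beside CCA1, LHY and RVE1, which were set aside. RVE2, at chr5:14751344-14753088, had the largest difference above DMSO at 10 h. It read 17.8, 25.2 and 20.7 FPKM with DMSO, 75.9, 77.8 and 58.1 at 10 h and 5.64, 7.43 and 7.80 after 14 h in the ZAT14-like line. The ZAT14 line gave 17.4, 44.9 and 20.2, then 59.8, 62.2 and 76.5, then 7.92, 6.35 and 7.40. The 3 conditions did not overlap in either line, and here library 3 at 10 h was like the others.

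ELF4, a component of the evening complex that represses clock genes at night, averaged 13.1 ± 2.78, 18.8 ± 2.17 and 7.31 ± 2.90 FPKM in the order DMSO, 10 h, 14 h in the ZAT14-like line, and 15.6 ± 1.59, 19.1 ± 5.12 and 5.91 ± 0.932 in the ZAT14 line (SD, n = 3). PRR9 read 9.33, 12.4 and 12.6 FPKM with DMSO, 12.5, 4.39 and 16.2 at 10 h and 4.22, 5.23 and 9.02 after 14 h in the ZAT14-like line. Values in the ZAT14 line were 11.5, 20.0 and 15.6, then 10.9, 0.837 and 16.4, then 4.75, 5.23 and 7.62. The 10 h libraries numbered 3 stood far below the other 10 h libraries for this gene. RVE8, which activates evening genes, was at -0.69 and -0.70 at 14 h. Over the whole clock list, 18 of 20 genes lay below DMSO at 14 h in the ZAT14-like line and 19 in the ZAT14 line, with medians of -0.45 and -0.64. No hour of harvest is given for the DMSO, 10 h and 14 h groups. For clock and light genes, a difference in hour between these groups therefore cannot be told apart from an effect of induction.

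Auxin and vascular genes formed a smaller group. IAA30 read 2.35, 3.93 and 3.24 FPKM with DMSO, 1.72, 1.11 and 0.807 at 10 h and 0.678, 0.224 and 0.409 after 14 h in the ZAT14-like line. For the ZAT14 line they were 3.48, 4.10 and 3.29, then 0.944, 2.22 and 1.97, then 1.35, 0.623 and 1.63. IAA20 averaged 2.40, 0.753 and 0.371 FPKM in the former and 2.18, 1.06 and 0.810 in the latter. For both genes all estradiol libraries lay below all DMSO libraries. GH3.5, which conjugates auxin to amino acids, averaged 3.56, 1.74 and 1.37 FPKM in the ZAT14-like line and 3.97, 2.15 and 2.49 in the ZAT14 line. PIN4, an auxin exporter, differed mainly at 14 h, with 35.5 ± 2.25, 33.1 ± 8.88 and 20.3 ± 0.620 FPKM in the ZAT14-like line, and 39.1 ± 3.41, 31.5 ± 7.19 and 23.6 ± 1.23 in the ZAT14 line (SD, n = 3).

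These 4 were the members among 18 tested auxin genes, and BUD2, a gene of polyamine synthesis, was the member among 19 procambium genes. The auxin list had medians of -0.09 and 0.09 at 14 h, and 3 of its genes, GH3.2, GH3.3 and IAA19, were at least 0.5 above DMSO in both lines. The procambium list had medians of -0.38 and -0.14, with 15 genes below DMSO in both lines. BUD2 read 1.69, 1.81 and 1.89 FPKM with DMSO, 1.25, 1.02 and 0.763 at 10 h and 0.366, 0.303 and 0.442 after 14 h in the ZAT14-like line. In the ZAT14 line it read 1.82, 1.70 and 1.95, then 1.17 ± 0.116 on average (SD, n = 3), then 0.902, 0.957 and 1.01. The conditions were separate in both lines. ACL5 and TMO5, of the same list and set aside here, were at -2.09 and -1.31, and at -1.53 and -0.90. The other adenosylmethionine decarboxylase gene among the members, AT5G15950, was far more abundant, at 177 to 239.9 FPKM with DMSO and 81.4 to 105 after 14 h in the ZAT14-like line, and at 196 to 327 and 79.4 to 112 in the ZAT14 line.

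Cytokinin response was represented by ARR5 and ARR15, type-A response regulators that dampen cytokinin signalling, as 2 members of 8 tested. ARR5 averaged 18.8 ± 0.676 FPKM with DMSO and 11.2 ± 2.44 after 14 h in the ZAT14-like line, and 15.4 ± 1.79 and 10.8 ± 3.84 in the ZAT14 line (SD, n = 3), where library 4 at 14 h, at 15.2, lay within the DMSO range. Abscisic acid response gave 3 of 13: ABF4, a bZIP factor that binds abscisic acid response elements, HAI1, a protein phosphatase of the pathway, and AFP2, a repressor of it. ABF4 read 15.4 to 21.2 FPKM with DMSO and 10.7 to 11.0 after 14 h in the ZAT14-like line, and 16.5 to 21.8 and 9.71 to 10.2 in the ZAT14 line. Both lists were made after the members were seen.

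Genes of the thalianol cluster, a run of neighbouring genes on chromosome 5 that make a root triterpene, gave 3 members. The list that holds them, made after the members were seen, had 6 tested genes and also covers the marneral cluster. THAS1, thalianol synthase, at chr5:19456837-19461706, read 2.82, 4.56 and 3.33 FPKM with DMSO, 0.451, 0.640 and 0.510 at 10 h and 0.400, 0.567 and 1.21 after 14 h in the ZAT14-like line. The ZAT14 line gave 1.82, 3.67 and 3.40, then 0.614, 3.19 and 0.581, then 0.132, 0.334 and 0.379. At 10 h in the ZAT14 line library 3 was the one library at the DMSO level, the opposite of its place for PAL2 and ELIP2. CYP705A5, a cytochrome P450 gene of the cluster, was likewise high in that library, with 10 h values of 0.280, 2.83 and 0.144 in the ZAT14 line, and so was CYP708A2, with 0.265, 1.84 and 0.264. AT4G11190, a dirigent-like gene on chromosome 4, was high there too, at 0.333, 3.11 and 0.205, and was named after its values were seen. Its neighbour AT4G11210 was not, at 6.75, 14.7 and 16.5.

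Wall and transport genes completed the named members. PIP2;8, an aquaporin of the plasma membrane and the member among 17 tested, read 7.51, 8.84 and 8.15 FPKM with DMSO, 5.87, 6.13 and 5.80 at 10 h and 2.60, 3.21 and 2.74 after 14 h in the ZAT14-like line. Values in the ZAT14 line were 8.29, 9.12 and 8.37, then 7.36, 6.97 and 6.64, then 4.80, 4.58 and 3.95. It stepped down in both lines with no overlap between conditions. XTH9, a xyloglucan-modifying enzyme, averaged 18.0, 23.5 and 8.75 FPKM in the ZAT14-like line and 19.4, 24.4 and 12.9 in the ZAT14 line. EXLA2, an expansin-like gene, averaged 12.2, 7.41 and 5.98 FPKM and 10.5, 6.48 and 4.89. They were the 2 members among 14 tested genes of wall loosening, a list on which 3 genes were at least 0.5 above DMSO in both lines.

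The most abundant members were ABCI20 and ABCI21, genes for small ATP-binding proteins of one transporter family. ABCI20 read 385, 409 and 525 FPKM with DMSO, 298, 169.8 and 342 at 10 h and 264, 300.1 and 283 after 14 h in the ZAT14-like line, and 473, 408 and 489, then 212, 126 and 317, then 291, 225 and 215 in the ZAT14 line. ABCI21 averaged 419, 395 and 223 FPKM in the former and 458, 274 and 185 in the latter. Other members with a large difference at 14 h were the annexin gene ANNAT4, at -1.20 and -1.31, the MYB repressor gene MYB32, at -1.21 and -1.19, and CYP82F1, a cytochrome P450 gene, at -1.22 and -1.52. ZFP6, a zinc finger gene of trichome development, was at -0.71 and -0.97, and AT4G34730, annotated in the ribosome-binding factor A family, at -0.56 and -0.53.

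**Figure D4:**
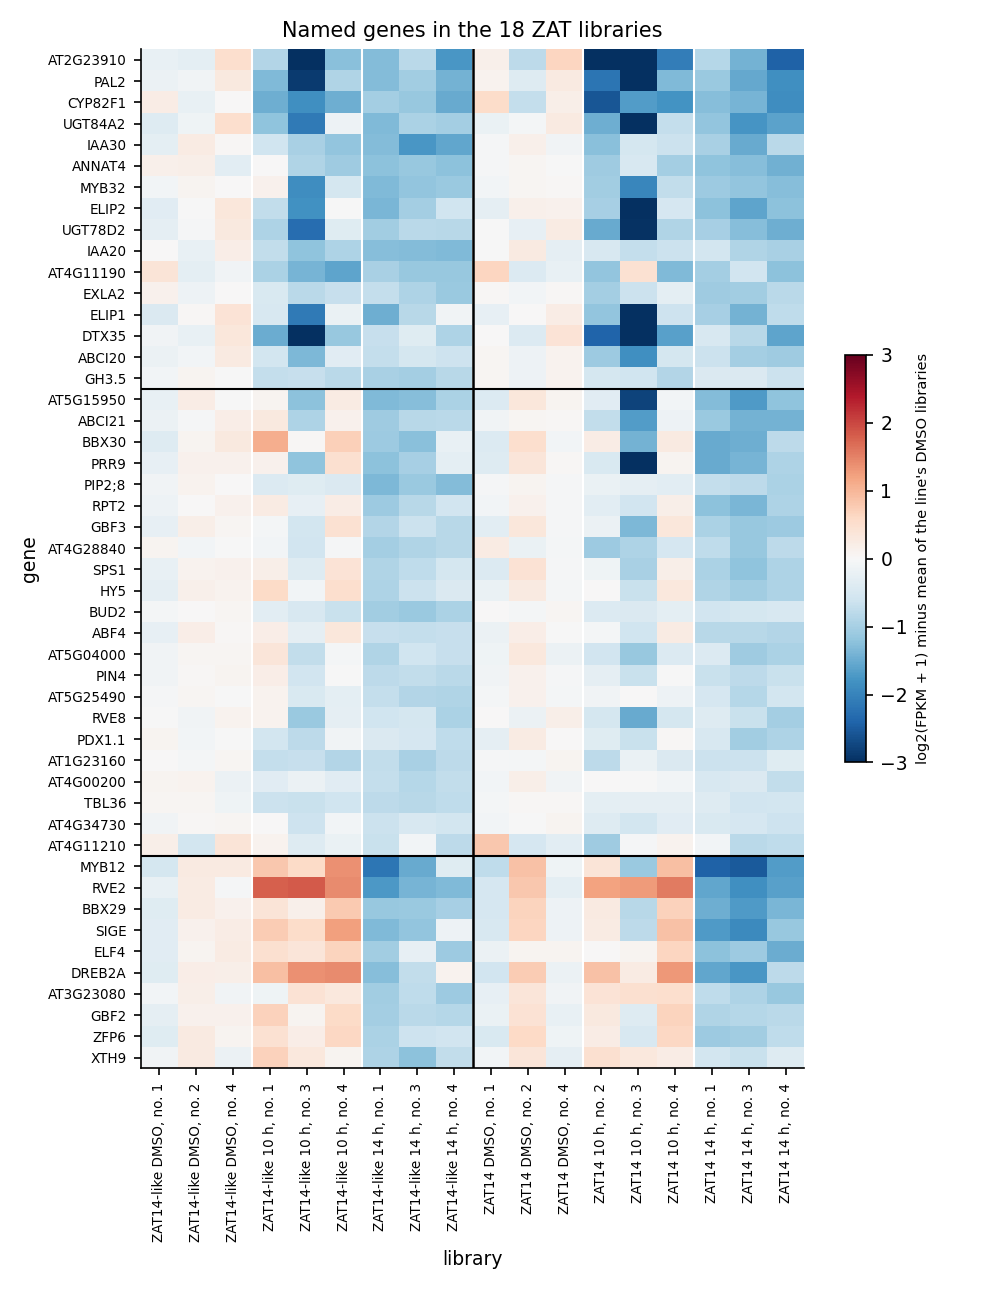
Each row is a named gene and each column 1 of the 18 libraries of the ZAT lines, and colour gives log2(FPKM + 1) minus the mean of the line's DMSO libraries. The 14 h columns are below DMSO in nearly every row, while at 10 h RVE2 and SIGE lie above DMSO in the ZAT14-like line and PAL2 and DTX35 lie below.

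In the pear sextuple mutant, whose libraries had no part in the choice, the genes moved in both directions. Of the 149 that passed the expression minimum there, 61 were higher and 37 lower than in Col-0 (limma, adjusted p under 0.05), where the background was 44.6% higher and 18.6% lower. The median over the genes was 0.15 and that over all genes 0.21, so the table is shifted upward as a whole. After median-ratio rescaling, which takes out that shift, 48 were higher and 53 lower, beside 29.0% and 29.4% of all genes. The chosen genes are therefore near the background in this mutant.

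By their course at 10 h they were not alike. Of the 22 genes above DMSO at 10 h, 17 rose in the mutant and 1, BBX29, fell, with a median of 0.95. Of the 39 tested genes already low at 10 h, 4 rose and 18 fell, with a median of -0.34. The 88 genes between gave 40 and 18, with a median of 0.21. After rescaling the counts were 15 and 1, then 2 and 25, then 31 and 27, with medians of 0.79, -0.51 and 0.02. Grouped without the 10 h libraries numbered 3, 22 of 34 genes above DMSO rose and 2 fell, and 3 of 27 low genes rose and 11 fell. Grouped without those numbered 4, the counts were 11 of 12 and 0, and 9 of 48 and 19. The difference between the courses is a description, since the courses were defined after the genes were chosen and no test of it was run.

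**Figure D5:**
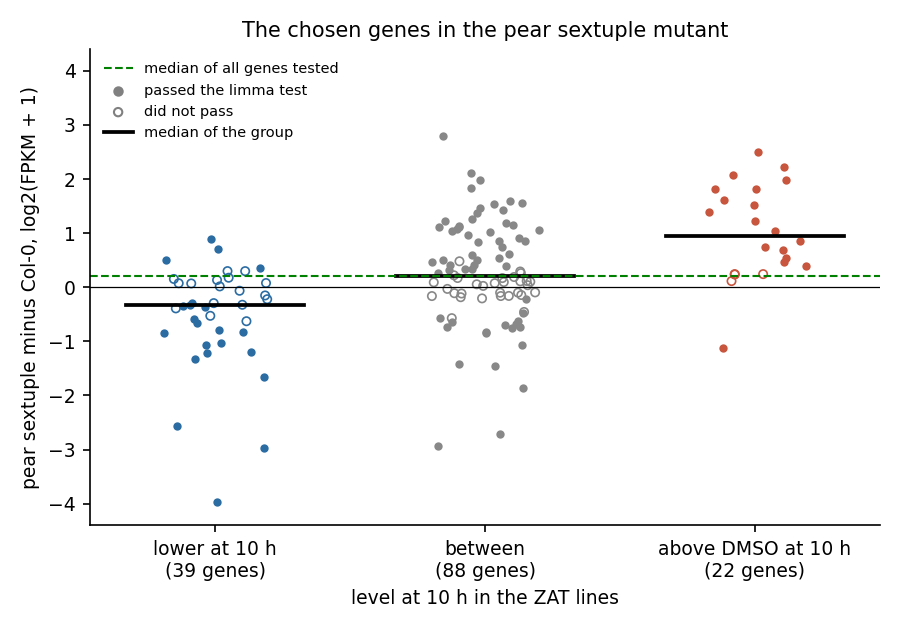
Difference between the pear sextuple mutant and Col-0 on the log2(FPKM + 1) scale for each chosen gene tested, by level at 10 h in the ZAT lines, with filled points for genes that passed the limma test, open points for those that did not and a black bar for each median. The medians are -0.34, 0.21 and 0.95 from left to right, beside 0.21 over all genes.

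PDX1.1, a gene for vitamin B6 synthesis, rose from 18.7, 21.0 and 18.2 FPKM in Col-0 to 129, 146 and 146 in the mutant, a log2 difference of 2.80 (SE 0.08, limma adjusted p = 4.14e-07). Its neighbour PDX1L4 averaged 10.2 and 32.3 FPKM, and the pair are relatives that could share reads. RVE2 rose from 5.44, 6.69 and 5.82 FPKM to 26.7, 31.9 and 36.7, by 2.22 (SE 0.12, limma adjusted p = 5.24e-06). DREB2A, a regulator of drought and heat responses, rose from 8.59, 9.83 and 10.3 FPKM to 43.2, 48.9 and 39.2, by 2.08 (SE 0.10, limma adjusted p = 3.2e-06). None of these groups overlapped. AT3G23080, AT4G00200 and AT5G04000 were the other genes with large rises, by 2.50, 2.11 and 1.98.

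On the clock list ELF4 averaged 51.5 ± 28.1 FPKM in Col-0 and 169 ± 20.7 in the mutant (SD, n = 3), a rise of 1.82, and RVE8 averaged 1.11 and 2.78. The third clock member to rise was RVE2, and PRR9, at 1.79 and 1.56 FPKM, did not pass the test. Of all 19 clock genes tested 15 rose and 0 fell, or 13 and 0 after rescaling. Over all genes 44.6% rose and 18.6% fell, or 29.0% and 29.4% after rescaling, and the list was not tested as a set. No hour of harvest is given for the mutant or Col-0. For clock genes, a difference in hour therefore cannot be told apart from an effect of the mutation. RPT2 rose from 53.7 ± 12.5 to 110.3 ± 2.24 FPKM, PIN4 from 29.5 ± 2.31 to 53.4 ± 3.73, PIP2;8 from 13.8 ± 0.689 to 28.1 ± 1.53 and CLA1 from 22.3 ± 1.37 to 37.9 ± 0.995 (SD, n = 3). HY5 was at 40.7 ± 3.54 and 42.9 ± 0.454 FPKM and MYB12 at 7.02 ± 0.679 and 8.54 ± 1.35, and neither passed the test.

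The genes that fell furthest had other roles. ELIP2 fell from 20.8, 20.6 and 20.9 FPKM to 1.56, 1.32 and 2.62, a difference of -2.97 (SE 0.16, limma adjusted p = 4.27e-06), and ELIP1 from 27.9, 29.4 and 18.1 to 6.47, 5.24 and 10.5, a difference of -1.66. EXLA2 fell from 12.5, 14.6 and 7.41 FPKM to 1.23, 0.757 and 1.21, a difference of -2.56. AT4G11190 read 21.5, 22.5 and 7.37 FPKM in Col-0 and 0.148, 0 and 0 in the mutant, a fitted difference of -3.97 that depends on the added 1. AT1G23160, annotated in the auxin-responsive GH3 family, and AT5G25490, a zinc finger gene, differed by -2.94 and -2.72. AT4G11210 differed by -1.87, and its limma adjusted p ranged up to 0.0725 among the alternatives, without the expression minimum. ABCI20 and ABCI21 fell as well, from 101 to 42.5 FPKM and from 78.0 to 28.0, and so did CRY3, a plastid cryptochrome, by 1.46 on the log2 scale.

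The lists do not follow a single direction in the mutant. Of the 11 light signalling members 5 rose and 3 fell, or 3 and 4 after rescaling, and of 8 photoprotection members 3 rose and 2 fell, or 2 and 4. Of 7 carotenoid and isoprenoid members 4 rose and 0 fell as tested, and 2 and 2 after rescaling. Over all genes 44.6% rose and 18.6% fell, or 29.0% and 29.4% after rescaling, and these small counts were not tested against those shares. UGT78D2 fell from 18.5 to 8.22 FPKM and BUD2 from 2.34 to 1.05, while PAL2, UGT84A2, IAA20, IAA30 and GH3.5 did not pass the test. Root cap marker sums were 76.4 to 93.3 FPKM in Col-0 and 185 to 209 in the mutant, and sieve element sums were 11.8 to 14.2 in Col-0 and lower in every mutant library, down to 2.46, with 2 of 8 of these markers, NAC045 and SEOR2, at 0 in all mutant libraries. The part of these cell type differences in the results was not tested.

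The 6 libraries at 10 h were used by the rule only for the expression minimum. Between the lines at 10 h no chosen gene was called when they were fitted alone (limma, adjusted p under 0.05). In that fit 0.0699% of all genes were called higher and 0.0175% lower. At an unadjusted p under 0.05 that fit gave 12 of the 162 genes and 1032 of all 17157. In the fit of all 18 libraries, whose variance also draws on the DMSO and 14 h libraries that chose the genes, 2 of the genes were called. AT4G28840, annotated as a Mediator subunit, was higher in the ZAT14-like line, at 13.7, 9.38 and 14.2 FPKM against 5.46, 6.19 and 8.68, a difference of 0.79 (SE 0.16, limma adjusted p = 0.0284). TBL36, of a family that acetylates wall polysaccharides, was lower, at 6.54, 6.38 and 6.82 FPKM against 8.21, 8.41 and 8.48, a difference of -0.31 (SE 0.07, limma adjusted p = 0.0446). They were 1 higher and 1 lower of 162, where 0.892% and 0.134% of all genes were called. The highest limma adjusted p among the alternatives was 0.446 for AT4G28840 and 0.569 for TBL36.

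The median difference between the lines at 10 h, ZAT14-like minus ZAT14, was 0.20 over the genes and 0.02 over all genes tested. Leaving out library 3 of the ZAT14 line took it to -0.01, and leaving out library 4 of that line took it to 0.37. At an unadjusted p under 0.05 in the fit of all 18 libraries, 25 of the 162 genes, or 15.4%, differed, beside 16.3% of all tested. Leaving out library 3 of the ZAT14-like line gave 37.0% beside 23.5%, and leaving out library 4 of the ZAT14 line gave 35.8% beside 19.2%. Leaving out library 1 of the ZAT14-like line gave 8.64% beside 10.06%, and leaving out library 4 of that line gave 11.1% beside 24.1%. Without library 2 or library 3 of the ZAT14 line the shares were 10.5% and 11.1%, beside 9.55% and 12.2%. HY5, MYB12 and RVE2 were at 0.28, 0.32 and 0.09, with standard errors of 0.22, 0.52 and 0.25, and none of them passed the test.

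In the sorted cells few genes were called with PLT2 induction, among the chosen genes and among all genes tested. Of 151 chosen genes tested, 2 were higher and 1 lower (edgeR quasi-likelihood, adjusted p under 0.05), beside 0.259% and 0.397% of all genes. At an unadjusted p under 0.05 in that fit, 28 of the 151, or 18.5%, differed, beside 20.8% of all. XTH9 rose from 4.91, 1.97 and 5.38 CPM (counts scaled to library size) with DMSO to 109.7, 46.1 and 80.4 with estradiol, a log2 difference of 3.76 (edgeR adjusted p = 0.0411). SPS1, a solanesyl diphosphate synthase of plastoquinone synthesis, rose from 13.5, 9.48 and 5.07 CPM to 59.9, 62.9 and 53.8, a difference of 2.14 (edgeR adjusted p = 0.048). GBF3 fell from 65.5, 100.3 and 86.9 CPM to 31.3, 26.5 and 29.5, a difference of -2.12 (edgeR adjusted p = 0.048). The groups did not overlap for any of the 3 genes.

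These 3 calls were lost in 5 of the 6 fits that left out 1 library, which called 0 to 5 genes higher and 0 to 1 lower over all genes tested, with an edgeR adjusted p of up to 0.114 for XTH9 and 0.191 for the other 2. The log2 differences in those 5 fits were 3.45 to 4.09 for XTH9, 1.87 to 2.29 for SPS1 and -2.18 to -1.86 for GBF3. As an alternative, DESeq2 called 9 higher and 11 lower, or 5.96% and 7.28%, beside 4.66% and 8.43% of all genes. GBF2, at 87.9 CPM with DMSO and 35.1 with estradiol, and HY5, at 44.9 and 30.6, did not pass the test, with edgeR adjusted p = 0.0702 and 0.0679. DREB2A was abundant and variable, at 675, 428 and 129 CPM with DMSO and 153, 73.1 and 368 with estradiol. The cDNA was amplified by PCR with no molecular identifiers in the labels' protocol, so counts are not independent molecules. Markers of cell types other than the sieve element were low in these libraries with DMSO: root cap markers summed to 9.16 to 78.7 CPM and xylem markers to 23.4 to 54.1, against 8523 to 14448 for sieve element markers.

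The genes stood lower in the sorted cells than in whole meristems relative to other genes. Ranked per unit length over 18425 genes, the 157 members present in both tables had a median percentile of 53.1 in DMSO meristems of the ZAT lines and 34.2 in DMSO sorted cells, and 63 members were at least 25 points lower while 12 were at least 25 points higher. Over all genes 16.1% were lower by that much and 15.7% higher. Genes were ranked if their mean reached 1 in either set, so some entered through the sorted cells alone. The members had all passed an expression minimum in the meristems, where their lowest DMSO level was 1.14 FPKM. The shares over all genes are therefore not a like background, and how much of the difference follows from the choice was not tested. UGT84A2 went from percentile 91.3 to 4.30 and AT2G23910 from 90.0 to 3.58. In the other direction the transporter gene UMAMIT11 went from 15.1 to 87.0, the kinase gene MAPKKK14 from 25.3 to 83.8, the small heat shock gene HSP17.6A from 41.9 to 99.0, AT5G25490 from 38.8 to 93.8 and DREB2A from 47.4 to 98.2. These genes were named after their values were seen. The tables differ in tissue, cell handling, amplification and counting as well as in cell type, and these cannot be told apart.

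AT5G15950 differed most between tables. It averaged 266 FPKM with DMSO in the ZAT14 line, and was listed at 0 in all Col-0 libraries, at no more than 0.0307 FPKM in the pear mutant and at no more than 0.101 CPM in the sorted cells. The reason was not tested, and the gene was not in the pear or PLT2 tests.

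Some members lay near each other in the genome, and how often the other genes tested do so was not counted. In 9 pairs at most 1 protein-coding gene lay between the members: NET4B and RPT2, PDX1L4 and PDX1.1, ANNAT4 and ANNAT3, AT3G14540 and GGPS3, AT3G23510 and AT3G23530, AT4G11190 and AT4G11210, CYP705A5 and CYP708A2, CYP708A2 and THAS1, and ABCF5 and AT5G64850. Several pairs are relatives, such as the annexin genes, the cyclopropane fatty acid synthase genes AT3G23510 and AT3G23530 and the dirigent-like genes, and reads could have been divided between their copies. By chromosome, 30, 32, 39, 22 and 38 of the 161 members with an annotated locus lay on chromosomes 1 to 5.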

How the data were processed

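Polyadenylated RNA of root meristems and amplified cDNA of sorted cells were sequenced. The authors deposited FPKM values for the ZAT lines and for the pear mutant with Col-0, and gene counts for the sorted cells. The submitters' processing notes name TopHat2, HTSeq, Bowtie2, featureCounts and TAIR10, without saying which served which table, and neither versions nor strand settings are given in the sources used here. Reads could be divided or lost between near-identical genes.

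The chosen genes and all gene lists were selected with earlier results of these data known, and the later lists after the members were seen. FPKM values were compared as log2(FPKM + 1), with at least 1 FPKM in 3 libraries, by limma 3.58.1 in R 4.3.3, fitting the 18 libraries of the ZAT table together and the 6 of the pear table together. Counts were tested by edgeR 4.0.16 quasi-likelihood, with DESeq2 1.42.0 as an alternative. P-values were adjusted by Benjamini-Hochberg over all genes tested. No column lacked a sample. The tests were checked on simulated tables in which 200 genes had been altered.

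Depth in the FPKM tables, estimated from the steps between low values, was 18.1 to 26.6 (ZAT) and 17.8 to 25.9 (pear) in units of 10 to the power of 6 reads. With a tolerance of 0.05 reads, 77.0% to 79.6% of values came out whole in the ZAT table and 37.5% to 40.7% in the pear table, so FPKM values were not turned into counts. Tables were scaled separately and levels were set across them only as ranks. Group differences between DMSO, 10 h and 14 h libraries were described without a test.

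The rule for naming genes took the chosen genes with the largest mean difference at 14 h among those with at least 5 FPKM in the DMSO libraries of both lines, those with the highest DMSO level, those on the gene lists, the largest called differences in each independent comparison, the genes nearest the threshold on either side, the most abundant transcription factors by annotated product, and ZAT14 and ZAT14-like. Other genes were named after their values were seen. Promoters were read with pysam 0.24.0 from TAIR10.1, and figures were drawn with matplotlib 3.10.9. Alternatives were a pseudocount of 0.1, no expression minimum, median-ratio rescaling, a threshold of -0.75, a replicate block, other fits and leaving out each library. Equal library numbers do not establish pairing, so the block is an alternative only.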

Additional observations from a re-analysis of the deposited data

How the results depend on the processing

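The rule chose 276 genes with a pseudocount of 0.1 and 54 with a threshold of -0.75, and 147 to 180 when 1 library was left out. Counts in the pear mutant ran from 53 to 62 higher and from 31 to 41 lower over the fits that left out 1 library, and rescaling took the median of the genes to -0.057. Between the lines at 10 h the higher count was 0 with no expression minimum, 0 with the 6 libraries alone and 0 to 3 with 1 library left out. The lower count was 0 with the 6 libraries alone and 0 to 1 with 1 library left out. In the sorted cells DESeq2 called 9 higher and 11 lower, no filter on low counts gave 4 lower, and leaving out 1 library gave 0 to 3 higher and 0 to 5 lower. With only the 250 bases before the start, 0 promoters held TTCCCGC. The cause of these changes was not tested. None of the named genes whose calls were refitted changed direction. The median of the genes changed sign under that rescaling in the pear mutant, without library 3 of the ZAT14 line between the lines at 10 h (-0.01), and in the sorted cells without DMSO library 2 (-0.13) or estradiol library 1 (-0.03), where it was 0.08 with all libraries. For single genes, 29 of the alternatives lost their call while 143 kept it.

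With only the libraries numbered 1 and 4 kept, the rule chose 164 genes, of which 129 were among the 162. The tests instead kept all libraries and added the replicate number as a block. That block gave 61 higher and 34 lower in the pear mutant, 1 higher and 0 lower between the lines at 10 h, and 3 higher and 12 lower in the sorted cells. Same-numbered libraries of the ZAT table deviated together with correlations from -0.16 to 0.50 over 34 pairs, 12 of them over 0.1. The pear and sorted tables had 2 pairs each, at 0.25 and 0.36 and at 0.15 and 0.23.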
